A study of Mus musculus with 6 samples.

Results

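Immediate early genes are transcribed within minutes of a stimulus, from transcription factors already present in the cell, without new protein synthesis. Growth factors, mechanical stretch, injury and the handling of tissue are known to induce them in the vessel wall, and their RNAs are short-lived. The set described here was given by name as Fos, Fosb, Jun, Junb, Egr1, Ier2, Atf3, Nr4a1, Zfp36 and Dusp1. Of these 10 genes, 9 had a row among the 8690 gene names of the deposited table, and Fosb was not analysed here. All 9 passed the minimum mean of 1 FPKM (fragments per length of transcript and size of library, as the authors deposited them) over the 6 aortas and were tested.

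RNA was sequenced from aortas of aged C57BL/6 mice, 3 Sirt2-KO (replicates 4, 7 and 8) and 3 WT (replicates 2, 4 and 8), each from its own mouse. Sirt2 encodes an NAD-dependent deacetylase. The labels name no knockout allele, no age in months, no sex and no treatment, and they do not say how the aorta was cleaned of surrounding tissue or how long its removal took. By its title, the study set the RNA of old Sirt2-deficient aortas against that of old WT aortas. Sirt2 itself averaged 2.70 ± 0.560 FPKM in Sirt2-KO and 36.6 ± 11.6 FPKM in WT (SD, n = 3 each), and limma gave an adjusted p of 0.00156 (0.0792 with the replicate number as a block). Only numbers 4 and 8 occur in both genotypes, so that block compares those aortas alone. Column sums lay between 367746 and 396901 FPKM, the depth in reads is unknown, and no row had a variance under 1.00003 over the 6 aortas, so steady or low transcripts were left out before deposit.

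No immediate early gene was called different between the genotypes. Of the 9 genes, 0 reached an adjusted p under 0.05 by limma in either direction, 0 had an unadjusted p under 0.05, and in 0 did the 3 Sirt2-KO values lie apart from the 3 WT values. Among all 8605 tested genes, 2.91% passed the adjusted threshold (2.29% higher and 0.616% lower in Sirt2-KO), 24.8% had an unadjusted p under 0.05, and in 33.3% the groups did not overlap. The members' differences in log2(FPKM + 1), Sirt2-KO minus WT, ran from -0.16 in Zfp36 to 0.35 in Atf3, with 5 above 0, 4 below 0 and a median of 0.10, against a median of -0.08 over all tested genes. In every member but Ier2 (difference 0.10, SD 0.0604), the difference was smaller than the within-genotype SD of log2(FPKM + 1). From aorta to aorta, Sirt2-KO replicate 7 and WT replicate 8 were high and WT replicate 2 was low across much of the set.

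RefSeq promoter sequences (assembly GRCm38.p6, a later build than the mm9 named in the submitters' processing notes) were matched by symbol for 7 of the 9 genes, not for Egr1 and Ier2. The 150 bases before the annotated start are shown for Fos, Atf3 and Jun, whose levels correlated positively over the 6 aortas. For Jun this rested on Sirt2-KO replicate 7 and WT replicate 8. They are also shown for Junb and for Dusp1, the member with the highest level. Junb correlated negatively with Fos (Pearson's r = -0.65), Jun (-0.62) and, more weakly, Atf3 (-0.39). Capitals mark TGACG on either strand, the core of the cAMP response element (CRE) bound by CREB and ATF proteins, and TGACATCA, the AP-1-like element known from the Jun promoter.
Fos, chr12:85473740-85473889, plus strand: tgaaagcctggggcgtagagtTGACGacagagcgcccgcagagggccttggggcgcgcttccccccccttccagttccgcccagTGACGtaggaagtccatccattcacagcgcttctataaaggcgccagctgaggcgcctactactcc
Atf3, chr1:191183334-191183483, minus strand: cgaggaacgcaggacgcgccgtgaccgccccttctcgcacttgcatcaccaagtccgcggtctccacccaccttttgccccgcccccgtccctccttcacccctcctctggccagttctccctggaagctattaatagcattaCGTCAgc
Jun, chr4:95052223-95052372, minus strand: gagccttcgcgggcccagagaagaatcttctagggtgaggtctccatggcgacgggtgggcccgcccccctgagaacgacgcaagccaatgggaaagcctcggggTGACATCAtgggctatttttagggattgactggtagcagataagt
Junb, chr8:84978749-84978898, minus strand: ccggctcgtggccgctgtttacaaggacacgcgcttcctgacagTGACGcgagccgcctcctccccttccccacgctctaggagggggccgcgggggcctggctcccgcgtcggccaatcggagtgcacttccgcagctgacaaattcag
Dusp1, chr17:26508473-26508622, minus strand: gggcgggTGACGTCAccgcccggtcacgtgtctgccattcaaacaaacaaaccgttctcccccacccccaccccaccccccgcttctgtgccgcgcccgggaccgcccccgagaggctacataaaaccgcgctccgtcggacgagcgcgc

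In the 250 bases before the start, searched on both strands, TGACG was found in 5 of the 7 promoters (Fos, Junb, Atf3, Nr4a1 and Dusp1), and 17.9% of 27025 promoters of the same length, 1 per gene symbol, hold it. The full palindrome TGACGTCA, which contains TGACG on both strands, was found in 1 of the 7, that of Dusp1 (1.62% of all promoters). TGACATCA, a motif added after the Jun sequence had been read, was found in Jun alone among the 7 (3.02% of all promoters). The AP-1 consensus TGANTCA was found in 0 of the 7 (6.87% of all), the CArG box bound by serum response factor in Zfp36 (1.4% of all), and the EGR site GCGNGGGCG in Nr4a1 and Zfp36 (4.65% of all). The TATA box TATAAA was found in Fos (13.0% of all) and the GC box GGGCGG in 6 of the 7 (32.9% of all). The serum response element of Fos is known from further upstream and lies outside this window. These are matches of letters and not measured binding sites.

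**Figure D1:**
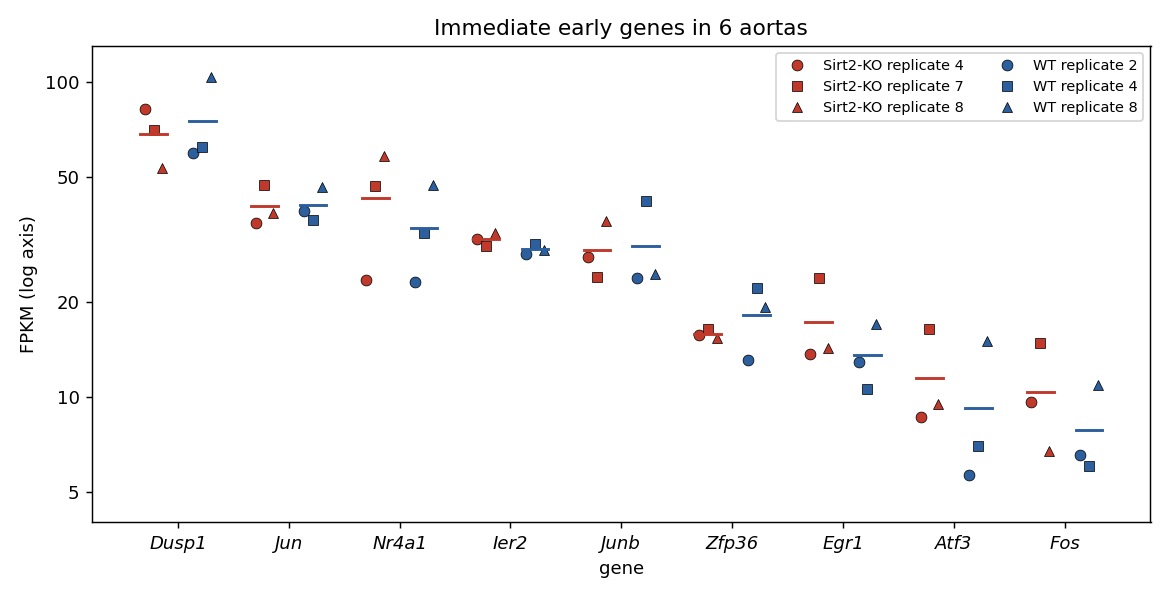
FPKM (log axis) of the 9 immediate early genes in each aorta, with Sirt2-KO in red at the left and WT in blue at the right of each gene; horizontal lines are means of 3 mice. The values of the genotypes overlap in every gene, and Ier2 has the narrowest range.

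By level, which FPKM allows to be compared between genes because it is scaled by transcript length, Dusp1 came first with a mean of 71.8 FPKM over the 6 aortas. Jun (40.5 FPKM), Nr4a1 (38.6), Ier2 (30.6) and Junb (29.7) followed, then Zfp36 (17.0), Egr1 (15.4), Atf3 (10.4) and Fos (9.11). The ranges of neighbours in this order overlapped over the 6 aortas, except that those of Dusp1 (53.1 to 103.8 FPKM) and Jun (35.6 to 47.2 FPKM) were apart and the lowest Junb value (23.9 FPKM) lay above the highest Zfp36 value (22.2 FPKM). Egr1 was above Atf3 within each of the 6 aortas, although their ranges overlapped. A level can be partial where a steady transcript of the gene was left out.

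Fos, Jun, Junb and Atf3 encode proteins with basic leucine zippers that pair with each other, and dimers of FOS with JUN proteins form the transcription factor AP-1. Fos, the founding member of the class, stood at 9.63, 14.8 and 6.72 FPKM in Sirt2-KO aortas and at 6.52, 6.03 and 10.9 FPKM in WT aortas. The highest values were those of Sirt2-KO replicate 7 and WT replicate 8, and Sirt2-KO replicate 8 lay close to WT replicate 2. The mean was 10.4 ± 4.08 FPKM in Sirt2-KO and 7.83 ± 2.70 FPKM in WT. Its log2 difference was 0.35 (SE 0.312, 95% interval -0.39 to 1.08, limma adjusted p = 0.496), and an exact two-sided permutation test over the 6 aortas gave p = 0.5, where 0.1 is the smallest that 3 against 3 allows. With 1 mouse left out the difference ranged from 0.079 without Sirt2-KO replicate 7 to 0.59 without Sirt2-KO replicate 8.

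Jun, which can pair with itself as well as with FOS proteins, had 35.6, 47.2 and 38.3 FPKM in Sirt2-KO aortas, against 39.0, 36.4 and 46.3 FPKM in WT aortas. Each genotype had 1 aorta above 46 FPKM and 2 under 40 FPKM. The log2 difference was -0.01, with a 95% interval of -0.37 to 0.35 (limma adjusted p = 0.972), the narrowest interval of the 4 genes. Junb, a JUN protein that is a weaker activator and can oppose JUN, was measured at 27.7, 24.1 and 36.3 FPKM in Sirt2-KO and 23.9, 42.0 and 24.5 FPKM in WT. Here the highest aortas were WT replicate 4 and Sirt2-KO replicate 8, neither of which was high for Fos. Its log2 difference was also -0.01 (95% interval -0.60 to 0.58, limma adjusted p = 0.985).

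Atf3, a stress-induced relative that can act as a repressor, read 8.60, 16.5 and 9.47 FPKM in Sirt2-KO aortas and 5.64, 6.96 and 15.0 FPKM in WT aortas. As for Fos, Sirt2-KO replicate 7 and WT replicate 8 were highest, and the highest aorta held 2.92 times the FPKM of the lowest, the widest span of the 9 genes. Atf3 had the largest log2 difference of the set, 0.35 (SE 0.373, 95% interval -0.53 to 1.23, limma adjusted p = 0.559). With 1 mouse left out it ranged from 0.08 without Sirt2-KO replicate 7 (0.10 without WT replicate 2) to 0.73 without WT replicate 8, short of the threshold each time (smallest limma adjusted p = 0.284).

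Egr1, Nr4a1 and Ier2 are early response genes of other families. Egr1 encodes a zinc finger factor induced through ERK and serum response factor, and it was at 13.7, 23.8 and 14.2 FPKM in Sirt2-KO aortas and 12.9, 10.6 and 17.1 FPKM in WT aortas. Sirt2-KO replicate 7 was again highest and WT replicate 8 second. The mean was 17.3 ± 5.70 FPKM in Sirt2-KO and 13.5 ± 3.28 FPKM in WT, and the log2 difference was 0.31 (SE 0.253, 95% interval -0.29 to 0.91, limma adjusted p = 0.454), the smallest adjusted p in the set. In the order of p over all 8605 tested genes, Egr1 ranked 4919. The difference was 0.067 without Sirt2-KO replicate 7 and 0.48 without WT replicate 8, the ends of its range with 1 mouse left out.

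Nr4a1, an orphan nuclear receptor known to restrain smooth muscle growth and inflammation in vessels, had 23.5, 46.7 and 58.0 FPKM in Sirt2-KO aortas and 23.1, 33.1 and 47.2 FPKM in WT aortas. The lowest aorta of each genotype was at about the same level, while the highest value was 58.0 FPKM in Sirt2-KO and 47.2 FPKM in WT. The log2 difference was 0.27 with the widest 95% interval of the 9 genes, -0.62 to 1.15 (limma adjusted p = 0.658). It was 0.0031 without Sirt2-KO replicate 8, 0.016 without WT replicate 2 and 0.64 without Sirt2-KO replicate 4. Ier2, a nuclear protein induced with the AP-1 genes, was the steadiest, at 31.7, 30.2 and 33.2 FPKM in Sirt2-KO and 28.3, 30.6 and 29.3 FPKM in WT. Sirt2-KO replicates 4 and 8 lay above every WT aorta, while replicate 7 lay below WT replicate 4. The log2 difference of 0.10 had a 95% interval of -0.14 to 0.35 (limma adjusted p = 0.538; exact two-sided permutation p = 0.2).

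Dusp1 and Zfp36 encode the feedback arm of the response. Dusp1 is a phosphatase that switches off MAP kinases, and its 2 summed rows gave 82.1, 70.4 and 53.1 FPKM in Sirt2-KO aortas and 59.5, 62.1 and 103.8 FPKM in WT aortas. WT replicate 8 stood above the other aortas, and the remaining 5 values were intermixed. The log2 difference was -0.11 (95% interval -0.71 to 0.50, limma adjusted p = 0.803). In the lower of the 2 rows the same aorta stood out further, with 4.67, 3.42 and 3.24 FPKM in Sirt2-KO and 5.14, 3.14 and 14.3 FPKM in WT.

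Zfp36 encodes tristetraprolin, which binds AU-rich elements and speeds the decay of cytokine and early response RNAs. It was at 15.8, 16.4 and 15.4 FPKM in Sirt2-KO aortas and 13.1, 22.2 and 19.3 FPKM in WT aortas. The Sirt2-KO values were close together and lay between the lowest and the next WT value. The log2 difference was -0.16 (SE 0.190, 95% interval -0.61 to 0.29, limma adjusted p = 0.602), and with 1 mouse left out at a time it ranged from -0.36 without WT replicate 2 (limma adjusted p = 0.213) to -0.0081 without WT replicate 4 (limma adjusted p = 0.981). Zfp36 lies on chromosome 7 within 1 Mb of Sirt2 in the RefSeq annotation. Of 39 other tested genes in that window, Sirt2 included, 2 were called higher in Sirt2-KO (Blvrb and Gmfg) and 3 lower (Sirt2, Prx and Mrps12), named here after their values were seen. That is 12.8% of the window, against 2.91% of all tested genes, and Sirt2 itself is among them.

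**Figure D2:**
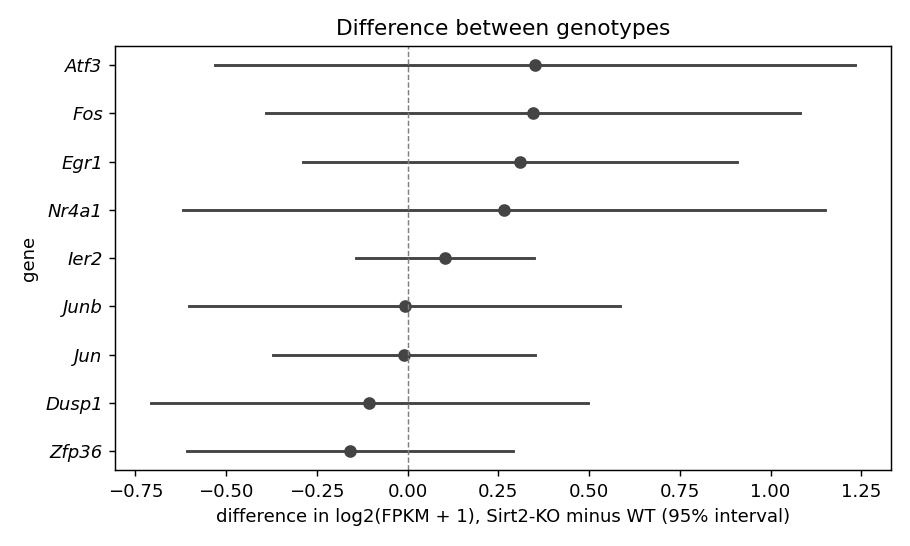
Difference in log2(FPKM + 1), Sirt2-KO minus WT, for each immediate early gene; points are limma estimates and lines their 95% intervals. Every interval spans 0, from the narrowest, that of Ier2 (-0.14 to 0.35), to the widest, that of Nr4a1 (-0.62 to 1.15).

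The intervals set what these 6 aortas can and cannot show. On the FPKM + 1 scale, the 95% interval of the ratio of Sirt2-KO to WT was 0.907 to 1.27 for Ier2 and 0.774 to 1.27 for Jun, while for Fos it was 0.762 to 2.12 and for Atf3 0.692 to 2.35. In the main fit a doubling or halving is therefore outside the interval for Ier2, Jun, Junb (0.659 to 1.50), Egr1 (0.820 to 1.88), Zfp36 (0.656 to 1.22) and Dusp1 (0.612 to 1.41). A doubling is inside it for Fos, Atf3 and Nr4a1 (0.651 to 2.22). For Egr1 this depends on the fit. Its log2 difference was 0.48 (SE 0.2595) without WT replicate 8 and 0.56 (SE 0.2505) with arrayWeights, where a doubling is not excluded. In bulk tissue, fewer cells of a type and less RNA per cell cannot be told apart.

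The spread between aortas of the same genotype was wide for most of the set. The within-genotype SD of log2(FPKM + 1) had a median of 0.376 over the 9 genes, against 0.232 over all tested genes. Nr4a1 (0.587) and Atf3 (0.577) varied more than 89.4% and 89.0% of tested genes, and Fos (0.469) more than 82.6%. Dusp1, Junb and Egr1 lay between 0.375 and 0.383, and Zfp36 was at 0.263. At the other end, Jun had an SD of 0.192 and Ier2 0.0604, with only 1.74% of tested genes less variable than Ier2. Because rows of low variance in FPKM were left out, the genes set beside them are not a full sample of low or steady genes.

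**Figure D3:**
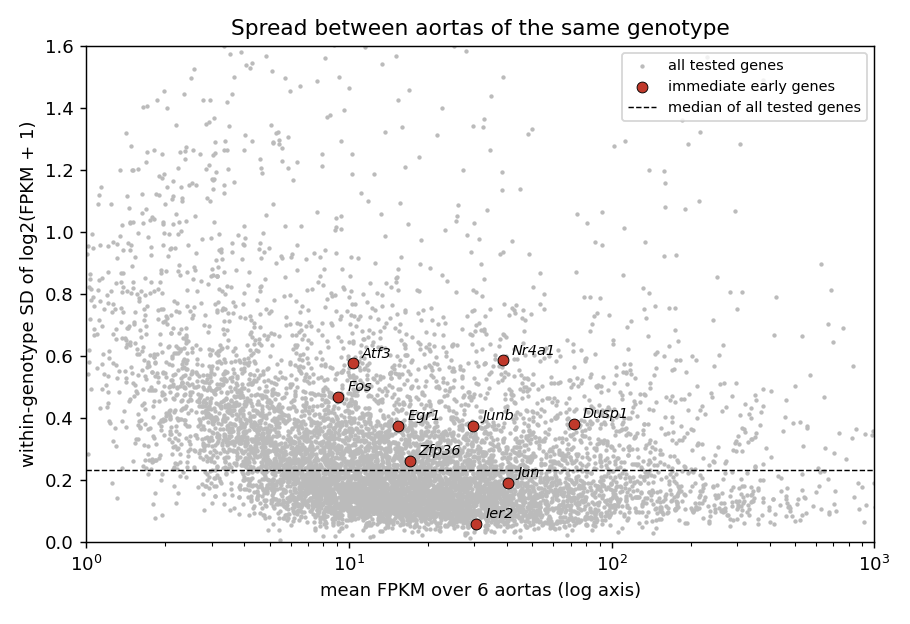
Within-genotype SD of log2(FPKM + 1) against mean FPKM (log axis) for all tested genes in grey and the 9 immediate early genes in red; the dashed line is the median SD of all tested genes (0.232), and 101 genes lie outside the plotted range. Of the 9 genes, Jun and Ier2 lie below the line.

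The genes did not vary as a single block. Over the 6 aortas, Pearson's r of log2(FPKM + 1) was above 0.8 in 5 of the 36 pairs, with a median of 0.281 and a range of -0.65 to 0.92. These 5 pairs were all among Fos, Egr1, Atf3 and Jun: r was 0.917 for Fos with Egr1, 0.877 for Egr1 with Atf3, 0.877 for Fos with Atf3, 0.863 for Jun with Egr1 and 0.837 for Jun with Atf3. Fos with Jun reached 0.761. Values in 1 aorta share its library and its scaling, so these correlations are descriptions over 6 aortas.

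Most of that shared variation came from 2 aortas of different genotype. Sirt2-KO replicate 7 was highest in 4 of the 9 genes, Fos, Jun, Egr1 and Atf3, and WT replicate 8 was second in 6 and highest in Dusp1. At the low end, WT replicate 2 was lowest in 5 genes, Junb, Ier2, Atf3, Nr4a1 and Zfp36, and lay above the mean of the 6 aortas in 0. Without the 2 aortas farthest from the median of Fos, Sirt2-KO replicate 7 and WT replicate 8, r over the remaining 4 was 0.546 for Fos with Egr1 and 0.454 for Fos with Atf3. Without the same 2 aortas r was -0.584 for Fos with Jun and -0.364 for Jun with Atf3, so those relations rest on them. Jun with Egr1 fell to 0.275 without these 2 aortas, so it rests largely on them too. For Egr1 with Atf3, r was 0.968 without Sirt2-KO replicate 7 and WT replicate 4, the aortas farthest from the median of Egr1. That leaves WT replicate 8 in, so it cannot be compared with the values above or show that this relation is free of WT replicate 8.

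Junb went its own way. It was negatively related to Fos (r = -0.65), Egr1 (-0.64) and Jun (-0.62) over the 6 aortas, and its closest relation was with Ier2 (0.617). Spearman's rank correlation was -0.43 with Fos, -0.37 with Egr1 and -0.66 with Jun. Without Sirt2-KO replicate 7 and WT replicate 8, Pearson's r weakened to -0.44 with Fos and -0.29 with Jun. Without WT replicate 4 and Sirt2-KO replicate 8, the aortas farthest from the median of Junb, it was -0.40 with Egr1. WT replicate 4, highest in Junb and Zfp36, was lowest in Fos and Egr1. Sirt2-KO replicate 8 was highest in Nr4a1 and Ier2 and lowest in Dusp1.

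**Figure D4:**
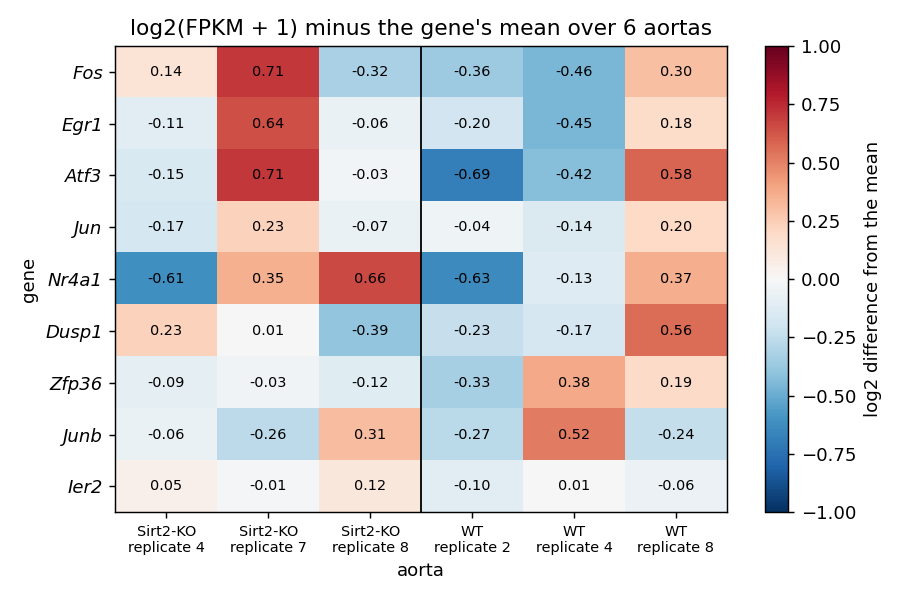
Each gene's log2(FPKM + 1) minus its mean over the 6 aortas, Sirt2-KO aortas left of the line and WT aortas right of it; red is above and blue below the gene's mean. Fos, Egr1, Atf3 and Jun are red in Sirt2-KO replicate 7 and WT replicate 8, while Junb is blue in both.

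Among 6773 other tested genes averaging 5 FPKM or more and with an ordinary symbol, the 8 whose log2 values ran most like the mean standardized level of the 9 genes were Med25, Synrg, Ddr2, Cmtm7, Nat6, Rnf141, Fosl2 and Ptp4a2. Their Pearson's r over the 6 aortas lay between 0.915 for Ptp4a2 and 0.972 for Med25, a subunit of the Mediator complex. Fosl2, which encodes the FOS-family protein FRA2, had r = 0.924 and stood at 14.8, 17.7 and 15.6 FPKM in Sirt2-KO aortas and 13.5, 16.7 and 17.6 FPKM in WT aortas. Like the set as a whole it was lowest in WT replicate 2 and highest in Sirt2-KO replicate 7 and WT replicate 8, and its log2 difference between genotypes was 0.01 (limma adjusted p = 0.956). Ddr2, a collagen receptor kinase, had 35.8, 52.3 and 43.9 FPKM in Sirt2-KO and 32.0, 36.9 and 45.1 FPKM in WT (r = 0.935). Leaving out WT replicate 2 lowered r to 0.817 for Fosl2, 0.770 for Rnf141 and 0.725 for Ptp4a2. The 8 genes are the top of a ranking of 6773 genes over 6 aortas.

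Genes around the set in the same pathway were read from 6 further lists, of which 130 of 167 genes were tested. By limma 0 of the 130 passed the adjusted threshold (2.91% of all tested genes did), 20 had an unadjusted p under 0.05 (15.4%, against 24.8% of all tested genes), and in 22 the groups did not overlap (16.9%, against 33.3%).

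Of other AP-1 genes and partners, 17 of 23 were tested and 0 were called by limma, with 4 higher and 1 lower at an unadjusted p under 0.05 and a median log2 difference of 0.06. Atf2, a CRE-binding partner of JUN, had 0.911, 2.09 and 3.54 FPKM in Sirt2-KO aortas and 6.21, 6.13 and 5.38 FPKM in WT aortas. All Sirt2-KO values lay below the WT values (log2 difference -1.20, limma adjusted p = 0.101). Jdp2, a JUN-binding repressor, was at 15.9, 19.5 and 23.6 FPKM in Sirt2-KO and 12.3, 13.9 and 13.0 FPKM in WT, again without overlap (0.54, adjusted p = 0.110 in limma).

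Other early response transcription factors (22 of 29 tested) held 0 called genes in limma, with 1 lower at an unadjusted p under 0.05 and a median of -0.01. Ets2, an ETS factor downstream of RAS, had 26.5, 23.2 and 25.8 FPKM in Sirt2-KO aortas and 31.7, 34.3 and 34.5 FPKM in WT aortas, with no overlap (log2 difference -0.40, limma adjusted p = 0.0973). Klf4, a regulator of smooth muscle phenotype, differed by 0.46 (limma adjusted p = 0.210) and the Notch target Hes1 by 0.31 (limma adjusted p = 0.307).

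Early response genes that encode effectors rather than transcription factors (29 of 37 tested) gave 0 calls in limma and 4 genes in each direction at an unadjusted p under 0.05, with a median of -0.02. F3, the tissue factor that starts coagulation, stood at 46.3, 107 and 89.3 FPKM in Sirt2-KO aortas and 35.8, 29.4 and 38.2 FPKM in WT aortas. The groups did not overlap, and the log2 difference was 1.13 (limma adjusted p = 0.0920), or 1.49 without Sirt2-KO replicate 4, where it passed (limma adjusted p = 0.0164). Over the Sirt2-KO aortas F3 had the same order as the adventitial fibroblast markers, but in WT replicate 4 it was lowest where their sum was highest of the WT aortas. Those 7 markers summed to 998, 2032 and 1708 FPKM in Sirt2-KO and 387, 593 and 532 FPKM in WT, 3 of the 7 were called higher by limma, and their part in F3 was not tested. The kinase gene Pim1 differed by 0.86 (limma adjusted p = 0.0961) and the stress gene Gadd45a by -0.72 (limma adjusted p = 0.119), each without overlap.

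Feedback inhibitors of the MAP kinase and cytokine pathways (20 of 24 tested) had a median of -0.05, with 0 called by limma and 2 higher at an unadjusted p under 0.05. Spry1, an inhibitor of receptor tyrosine kinase signalling, had the smallest p of the 6 lists. It stood at 16.1, 27.5 and 24.2 FPKM in Sirt2-KO aortas and 12.4, 13.3 and 11.2 FPKM in WT aortas, which did not overlap (log2 difference 0.80, limma adjusted p = 0.0814). Without Sirt2-KO replicate 4, the lowest of its group, the difference was 1.01 and passed (limma adjusted p = 0.0242). Trib2 differed by 0.36 (limma adjusted p = 0.189) and Zfp36l2, a relative of Zfp36 that also binds AU-rich elements, by 0.25 (limma adjusted p = 0.215).

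Upstream of the immediate early genes, the RAS, RAF and MAP kinases with serum response factor and its partners (27 of 39 tested) had a median of -0.11, with 0 called by limma and 2 higher and 1 lower at an unadjusted p under 0.05. Map2k2, the kinase MEK2, had 82.7, 68.1 and 74.1 FPKM in Sirt2-KO aortas and 55.7, 55.5 and 61.3 FPKM in WT aortas. These values did not overlap (log2 difference 0.37, limma adjusted p = 0.126). Sos2, which loads RAS with GTP, differed by -0.46 (limma adjusted p = 0.160) and Mapk14, the p38 alpha kinase, by 0.29 (limma adjusted p = 0.178).

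Heat shock genes, another group that answers to stress and handling, were all tested. Of the 15, 14 had differences below 0, with a median of -0.24. Over all 8605 tested genes, 4979 were below 0 and the median was -0.08. By limma 0 of the 15 were called and 1 was lower at an unadjusted p under 0.05. Hsf1, the heat shock factor, was at 20.5, 18.8 and 14.4 FPKM in Sirt2-KO aortas and 24.0, 22.4 and 25.0 FPKM in WT aortas (log2 difference -0.40, limma adjusted p = 0.165). The chaperone genes Hsph1 (-0.58, limma adjusted p = 0.313) and Hspa8 (-0.33, limma adjusted p = 0.338) overlapped between genotypes. Sirt2-KO replicate 4 was the highest aorta for Hsph1, which passed without it (-0.99, limma adjusted p = 0.0294). The summed level of the list was 3048, 1765 and 1631 FPKM in Sirt2-KO and 2121, 2753 and 2436 FPKM in WT. Sirt2-KO replicate 7, highest in Fos, had the second lowest heat shock sum. WT replicate 8, second in Fos, had 2436 FPKM, above the 2121 FPKM of WT replicate 2. The sum is weighted to the most abundant genes, and its relation to the immediate early genes was not tested.

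**Figure D5:**
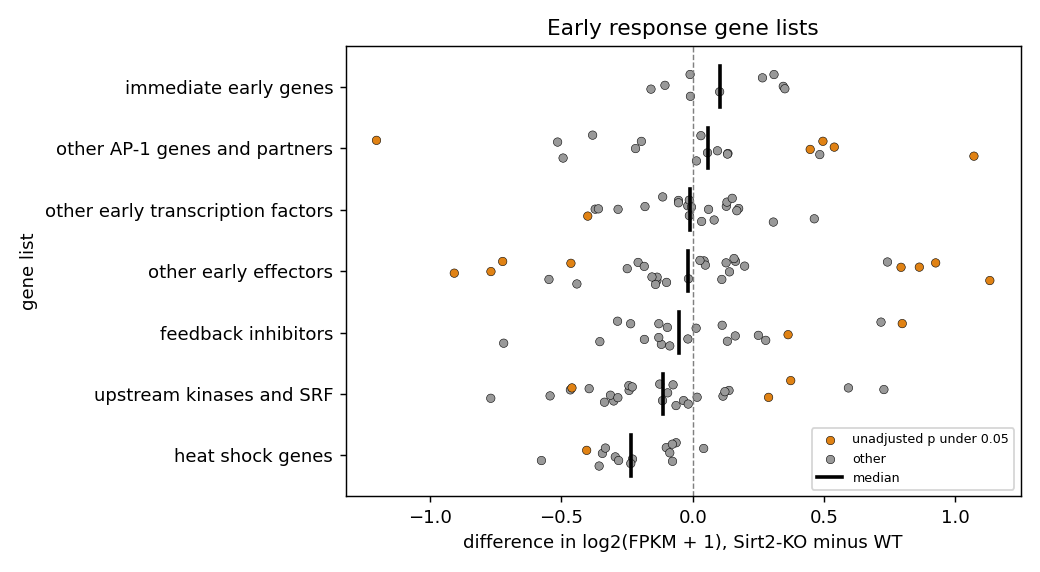
Difference in log2(FPKM + 1), Sirt2-KO minus WT, of each tested gene in the immediate early set and the 6 further lists; orange marks an unadjusted p under 0.05 and black bars the list medians. The immediate early genes lie between -0.16 and 0.35 with no orange point.

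The tissue itself was checked against 12 marker lists. Smooth muscle markers were abundant in every aorta, with 7 genes summing to 13699.9, 9593 and 7466 FPKM in Sirt2-KO and 14609.5, 8711 and 16538 FPKM in WT, and 0 of them were called. Endothelial markers summed to 286 to 322 FPKM in Sirt2-KO and 326 to 523 FPKM in WT (0 of 8 called). Adipocyte markers summed to 2235 to 3269 FPKM in Sirt2-KO and 527 to 2014 FPKM in WT (0 of 5 tested called), so the samples held fat, and Schwann cell markers to 43.7 to 46.7 FPKM in Sirt2-KO and 84.3 to 173 FPKM in WT (2 of 5 called lower). Macrophage markers summed to 286, 488 and 476 FPKM in Sirt2-KO and 111, 226 and 91.6 FPKM in WT (0 of 8 called). Of these 8, 7 were higher in Sirt2-KO without overlap, each with an unadjusted p under 0.05 by limma. The list had a median log2 difference of 1.52 and a smallest limma adjusted p of 0.0502. Of the adventitial fibroblast markers, 7 of 7 were higher in Sirt2-KO without overlap (median 1.80). By limma 3 of them were called higher (smallest adjusted p = 0.00509). Also higher without overlap were 4 of 5 tested adipocyte markers (median 2.02) and 3 of 4 tested red blood cell markers (median 1.43). Lower without overlap were 4 of 5 Schwann cell and 3 of 8 endothelial markers. Over all tested genes, the groups did not overlap in 33.3%. By limma 0 brown adipocyte, neutrophil, sympathetic neuron, heart muscle or red blood cell markers were called, and of the lymphocyte markers 1 of 3 tested, Ighm, was called higher. Aortas of the same genotype differed widely in several of these lists. Heart muscle markers summed to 63.3 to 66.9 FPKM in Sirt2-KO and 55.5, 416 and 51.8 FPKM in WT. Sympathetic neuron markers summed to 135, 5.52 and 11.0 FPKM in Sirt2-KO and 13.7, 213 and 141 FPKM in WT. Brown adipocyte markers summed to 415, 428 and 833 FPKM in Sirt2-KO and 905, 842 and 91.6 FPKM in WT. Red blood cell markers summed to 400, 817 and 1225 FPKM in Sirt2-KO and 215, 316 and 260 FPKM in WT. WT replicate 4, with the highest heart muscle and sympathetic neuron sums, was also highest in Junb and Zfp36. Without that aorta the log2 difference of Junb was 0.25 and that of Zfp36 -0.0081. The sum of the 9 immediate early genes was 248, 290 and 265 FPKM in Sirt2-KO and 212, 250 and 313 FPKM in WT, and these values overlapped. WT replicate 8, where that sum was highest, had the highest smooth muscle sum and the lowest adipocyte, brown adipocyte and macrophage sums. Sirt2-KO replicate 7, the next, had the highest macrophage and fibroblast sums. The part of cell make-up in the level of the set was not tested.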

How the data were processed

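Aorta RNA from 3 Sirt2-KO and 3 WT mice was grouped by sample title. The authors deposited FPKM values, per the file headers, in 14083 rows. The submitters' processing notes name Bowtie 0.12.2 and mm9 but no role for either. What quantified the reads, against which annotation and with which filter, is not stated in the labels. Rows with a date for a name (39) were left out and rows of the same name summed, as 1 member (Dusp1) has 2. Genotypes were compared on log2(FPKM + 1) by a two-sided limma fit (limma 3.58.1, R 4.3.3, trend in the spread), and p was adjusted by Benjamini-Hochberg over the 8605 genes averaging 1 FPKM or more. A pseudocount of 1 understates changes of low genes. Exact permutation tests used scipy 1.17.1 and figures matplotlib 3.10.9. The fit was tested on simulated data before use. The members, lists and tests were chosen with earlier results of these data known. Named genes are Sirt2, the members, the 3 smallest p of each pathway list, called markers beside a result, and the 8 genes most like the members; a gene that this rule names is left out here. Alternatives were other pseudocounts, filters, scalings, spread models, weights, row choice, a replicate block and leaving out each mouse.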

Additional observations from a re-analysis of the deposited data

How the results depend on the processing

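None of the 9 immediate early genes passed the adjusted threshold under any of the 17 alternatives run (0 called each time by limma). An unadjusted p under 0.05 came up in 1 gene without WT replicate 2 (Zfp36) and in 1 without WT replicate 8 (Atf3). Signs of the smallest differences were unstable. The log2 difference of Jun turned to 0.055 and that of Junb to 0.056 with median-of-ratios scaling, and Jun to 0.11 with arrayWeights. With 1 mouse left out at a time Jun ranged from -0.13 to 0.088, Junb from -0.17 to 0.25 and Dusp1 from -0.25 to 0.15; Fos, Egr1, Atf3, Nr4a1, Ier2 (0.070 to 0.14) and Zfp36 kept their sign. Numbers 4 and 8 occur in both genotypes, but nothing says that they pair mice, and deviations of same-numbered aortas correlated at -0.05 and -0.45. As only those numbers are shared, the replicate block compares replicates 4 and 8 of each genotype alone. Sirt2-KO replicate 7 and WT replicate 2 drop out of the difference. With the block, Fos (-0.017), Atf3 (-0.17) and Nr4a1 (-0.094) turned negative and Sirt2 missed the threshold (limma adjusted p = 0.0792). Of all tested genes 3 were called, against 250. That count was 1114 with arrayWeights, 151 with the highest row per gene, and 28 to 344 with 1 mouse left out; it was 28 without Sirt2-KO replicate 7, 29 without Sirt2-KO replicate 8, 71 without WT replicate 2 and 150 without WT replicate 8. Among the pathway genes, Atf2, Jdp2, Ets2, F3, Pim1 and Spry1 passed with arrayWeights, and F3, Spry1 and Hsph1 passed without Sirt2-KO replicate 4. The causes were not tested. Sequencing depth is unknown, so precision rests on 3 mice in each group.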
